A study of Mus musculus with 6 samples.

Results

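Glycolysis and hypoxia response genes were followed as a list of 35 genes, named for their known roles. The list holds 23 glycolytic members, which are glucose and lactate transporters, enzymes and enzyme regulators, and 12 hypoxia members, which are Hif1a, its prolyl hydroxylases and genes that low oxygen induces outside the glycolytic pathway. A member was measured where a probe set was annotated to its symbol alone, and where there were several the one with the highest mean over 6 arrays was used. That left 30 of 35 members among 22180 genes tested, 20 of them glycolytic and 10 hypoxia members. Gpi1, Aldoa, Eno1, Bnip3l and Ankrd37 had no such probe set and were not analysed here.

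The cells were Raw 264.7, a mouse macrophage line derived from a tumour, which the labels call monocytes. Cultures were grown with 10% serum, starved, and held in medium with 2% serum. The 3 arrays of one group were labelled as treated with the IL-1 family cytokine IL-33 at 50 ng/ml, and the 3 of the other as given PBS (0 ng/ml). Neither the duration of treatment nor the oxygen level is given in the sources used here. No label says whether replicates were separate cultures, and p-values therefore describe the spread of these arrays, part of which may be technical. Groups and directions follow the titles of the samples. The descriptions carry array names that contradict them, with the letters IL on PBS samples and P on IL-33 samples, and an exchange of titles would turn every sign below.

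Glycolysis splits glucose into pyruvate in the cytosol and yields ATP without oxygen. Macrophages lean on it when they are activated, and export the lactate that lactate dehydrogenase makes from pyruvate. Many of its genes are also targets of the hypoxia-inducible factor, whose alpha subunit, encoded by Hif1a, is hydroxylated and then degraded when oxygen is present. The enzymes that hydroxylate it, among them those encoded by Egln1 and Egln3, are themselves induced by the factor in many cell types. In bulk RNA, fewer expressing cells and less RNA per cell cannot be told apart.

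Values are log2 expression values made with RMA, a method that makes the distributions of arrays alike. Array medians were 5.31 to 5.36, and Pearson correlations across genes were 0.9972 to 0.9980 within groups and 0.9967 to 0.9971 between them. The 12 macrophage markers had a summed level (log2) of 15.23 to 15.26 in the arrays labelled IL-33 and of 15.26 to 15.27 in those labelled PBS, and none of the 12 passed. In 6 of them the groups did not overlap, 3 above and 3 below. That held for 20.3% of all genes and for 29.9% of genes at or above the median level, where all 12 lie. Named after their values were seen, Adgre1 was at -0.29 and Aif1 at 0.32 (log2), with adjusted p of 0.114 and 0.0675 (limma). Of 7 lymphocyte markers 1 passed, Ighm, which was higher with IL-33. The summed level, most of it from Ighm itself, was 11.49 to 11.62 with IL-33 against 10.80 to 11.03 with PBS. The 6 others, among them Cd3e and Cd79a, overlapped between groups. Of 8 mast cell and basophil markers 1 passed, Hdc, which was also higher, while the 7 others overlapped. The sum, which includes Hdc, was 8.01 to 8.09 with IL-33 against 7.63 to 7.79 with PBS. No fibroblast marker (8 measured) passed, nor did any of the 8 for endothelium and epithelium. Their sums lay at 8.25 to 8.31 and 8.30 to 8.47 in the arrays labelled IL-33, against 8.34 to 8.36 and 8.46 to 8.55 in those labelled PBS. The part of these markers in the results below was not tested.

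One member changed. Eno2, an enolase isoform best known from neurons, fell 1.39-fold in the arrays labelled IL-33. Bnip3, a mitophagy receptor, had the largest difference of the members, a level 1.43-fold lower, and did not pass the test over all genes. The other members whose groups did not overlap differed by 1.18-fold or less. Most of them lay lower with IL-33, while the glucose transporter Slc2a3, the lactate transporter Slc16a1, Hif1a and P4ha1 lay above their PBS values. Groups did not overlap in 20.3% of all genes and in 29.9% of genes at or above the median level.

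With p adjusted over all genes by Benjamini-Hochberg (limma) and a threshold of 0.05, 1 of 30 members was lower and none was higher, where 0.316% of all genes were lower and 0.591% changed in either direction. At an unadjusted p under 0.05 there were 11 members, 10 lower and 1 higher, beside 13.2% of all genes (6.74% lower and 6.42% higher) and 17.8% of genes whose mean level reached the median, where 29 of the 30 members lie. In 16 members the groups were fully separate, 12 with IL-33 below and 4 with IL-33 above. That held for 20.3% of all genes, 10.1% below and 10.3% above, and for 29.9% of genes at or above the median level, 13.2% below and 16.7% above. The count of 11 members rested on all 6 arrays: it was 7, 8 and 5 without IL-33 replicates 1, 2 and 3, and 7, 6 and 6 without PBS replicates 1, 2 and 3.

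**Figure D1:**
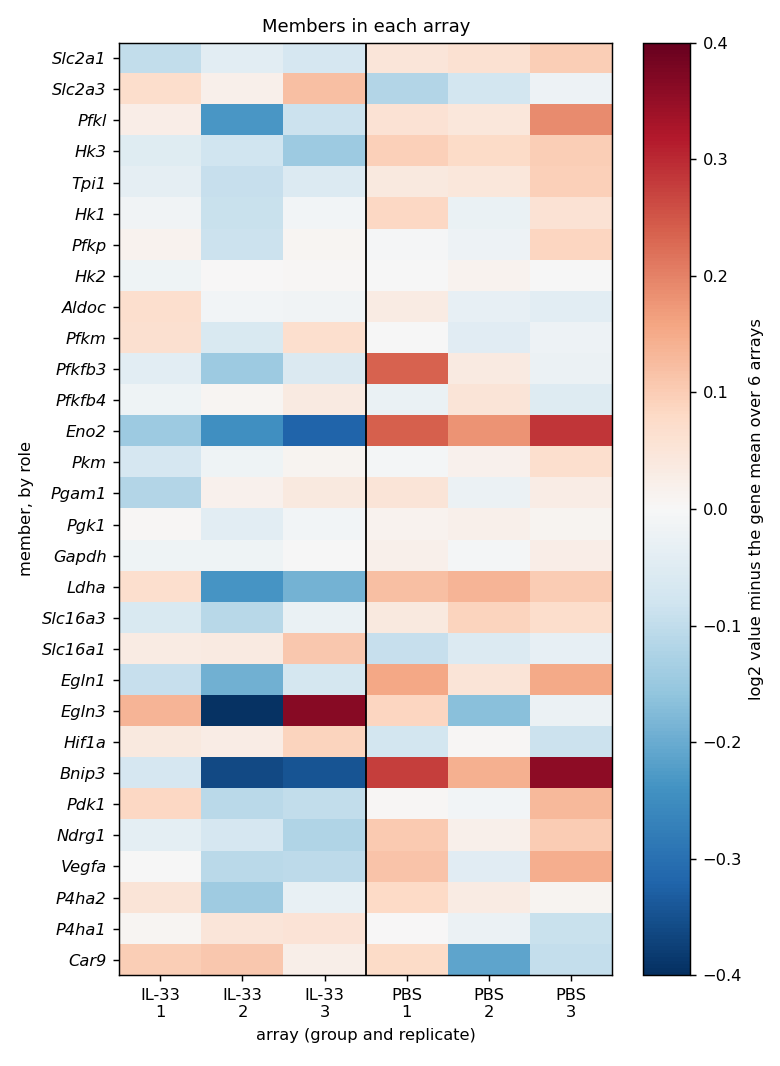
Each row is a member, ordered by role, and each column an array. The colour is the log2 value minus the mean of that gene over 6 arrays, with colours saturating at 0.4 in either direction on this scale. Eno2 and Bnip3 have the strongest contrast between the groups, and in Egln3 the 3 IL-33 arrays lie on both sides of the mean.

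Glucose enters macrophages through facilitative transporters, and the 2 on the list stood on opposite sides. Slc2a1, which encodes GLUT1, had log2 values of 12.38, 12.44 and 12.41 in the arrays labelled IL-33, against 12.53, 12.54 and 12.58 in those labelled PBS. All 3 IL-33 values lay below the PBS values, at a difference of -0.14 ± 0.05 (log2, SE) and an adjusted p of 0.290 (limma). Slc2a3, which encodes the high-affinity transporter GLUT3, had 7.95, 7.90 and 8.00 with IL-33, against 7.77, 7.81 and 7.86 with PBS. Here all 3 IL-33 values lay above, at 0.14 ± 0.05 (log2, SE) and an adjusted p of 0.332 (limma). Neither passed alone. The change of Slc2a3 minus that of Slc2a1 was 0.28 ± 0.04 (log2), with an SE taken from these 2 genes alone. The SEs of single genes are those of limma, which also draw on the spread of all genes, so the 2 kinds are not alike. The exact two-sided permutation p was 0.1. That is the smallest that 3 arrays against 3 allow, so no pair could reach 0.05.

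**Figure D2:**
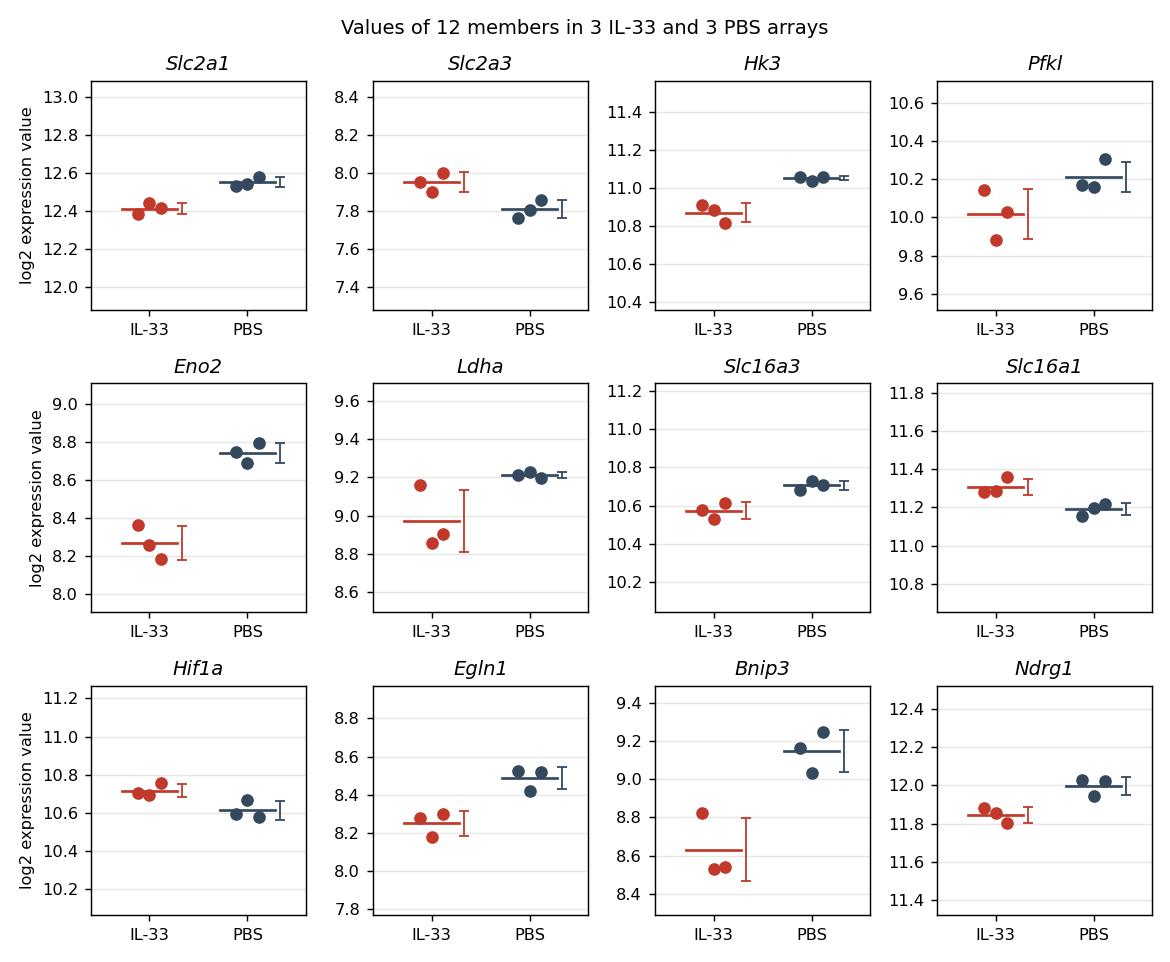
Log2 expression values (vertical axis, spanning the same range in every panel) of 12 members in the arrays labelled IL-33 (left, red) and PBS (right, blue). Points are arrays, horizontal lines are means and bars beside them are SDs, n = 3 each. The 12 were drawn from the 16 members whose groups do not overlap, so the separation in every panel follows from that choice. Groups do not overlap in 20.3% of all genes and in 29.9% of genes at or above the median level. Slc2a3, Slc16a1 and Hif1a are higher in IL-33 and the other 9 lower.

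The upper part of the pathway commits glucose to breakdown. Among the hexokinases, which trap glucose as its phosphate, Hk3, an isoform of myeloid cells, had 10.91, 10.88 and 10.81 in the arrays labelled IL-33, against 11.06, 11.04 and 11.06 in those labelled PBS. The groups did not overlap, and the difference was -0.18 ± 0.05 (log2, SE) with an adjusted p of 0.192 (limma). Hk1, the housekeeping isoform, and Hk2, the inducible one, overlapped between groups. Hk2 in particular differed by -0.01 with a 95% interval of -0.11 to 0.10 (log2), the tightest result among the hexokinases. The change of Hk2 minus that of Hk3 was 0.18 ± 0.04 (log2, SE, exact permutation p = 0.1).

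Phosphofructokinase, the main point of control, has 3 isoform genes. Pfkl, the liver-type isoform that is also used in leukocytes, had 10.14, 9.88 and 10.03 with IL-33, against 10.17, 10.16 and 10.30 with PBS. Its groups touched closely without overlap, at -0.19 ± 0.08 (log2, SE) and an adjusted p of 0.367 (limma), and the difference was -0.13 without IL-33 replicate 2. Pfkp and Pfkm, the platelet and muscle types, overlapped, at -0.04 and 0.05 (log2). Pfkfb3, which makes the sugar bisphosphate that activates phosphofructokinase, had 7.31, 7.21 and 7.29 with IL-33, against 7.59, 7.39 and 7.33 with PBS. PBS replicate 1 was the highest of them, and the difference of -0.17 ± 0.08 (log2, SE) had an adjusted p of 0.425 (limma). Without that array the difference was -0.09 (log2). Its relative Pfkfb4 differed by 0.02 (log2) and overlapped.

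Below phosphofructokinase the sugar is cleaved and its pieces are interconverted. Tpi1, the triosephosphate isomerase, had 12.33, 12.27 and 12.31 with IL-33, against 12.40, 12.41 and 12.46 with PBS, and did not overlap, at -0.12 ± 0.05 (log2, SE) and an adjusted p of 0.353 (limma). The aldolase isoform Aldoc overlapped, at 0.03 (log2).

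The lower part of glycolysis, where ATP is made, held the 1 member that passed. Eno2 had log2 values of 8.36, 8.26 and 8.19 in the arrays labelled IL-33, against 8.74, 8.69 and 8.79 in those labelled PBS. The groups were far apart compared with their own spread. Eno2 averaged 8.27 ± 0.09 with IL-33 and 8.74 ± 0.05 with PBS (SD, n = 3 each), a difference of -0.47 ± 0.06 (log2, SE) with an adjusted p of 0.0354 (limma). It passed without IL-33 replicate 1 but not without IL-33 replicate 2 or 3 or any 1 of the PBS replicates, with adjusted p from 0.0465 to 0.161 (limma) over these 6 fits and differences from -0.52 to -0.43.

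On the probe sets used, the other measured enzymes of the lower part stayed close to their PBS values. A second probe set of Pgam1, given below, did not. Gapdh, the dehydrogenase often used as a loading standard, had 13.17, 13.17 and 13.19 in the arrays labelled IL-33, against 13.21, 13.18 and 13.21 in those labelled PBS. Its 95% interval was -0.13 to 0.08 (log2). Pgk1, the first ATP-forming kinase of the pathway, did not overlap but differed by only -0.03, and Pkm, the pyruvate kinase, overlapped at -0.05 (log2). These 3 genes lie near the top of the scale of these arrays, whose highest value was 13.66.

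Pgam1, the phosphoglycerate mutase, had 2 probe sets that disagreed. The probe set with the higher mean had 11.55, 11.68 and 11.71 in the arrays labelled IL-33, against 11.72, 11.64 and 11.70 in those labelled PBS, and overlapped, at -0.04 (log2). The other had 10.71, 10.47 and 10.54 with IL-33, against 11.03, 10.93 and 10.95 with PBS. Its groups were well apart, at -0.40 ± 0.07 (log2, SE) and an adjusted p of 0.0880 over all single-gene probe sets (limma). Pgam1, Gapdh and other glycolytic genes have processed copies in the mouse genome that probes may also match, so the level of a single locus is uncertain here. Probe set numbers of the members run by chromosome, with chr17 before chr2. The Pgam1 set at -0.40 is numbered between those of Vegfa (chr17) and Pdk1 (chr2), and Pgam1 lies on chr19. The set at -0.04 is numbered between those of Slc16a1 (chr3) and Slc2a1 (chr4). The Gapdh set used is numbered between those of Slc16a3 (chr11) and Hif1a (chr12), and Gapdh lies on chr6. The values used for both may thus come from copies. No Gapdh set is numbered next to those of Eno2 and Tpi1, which lie close to Gapdh on chr6. The further Gapdh sets may thus come from copies too, and none of this was tested. The second probe sets of Car9, Hif1a, Ndrg1 and Slc2a1 and both further ones of Gapdh had the same sign as the first, and that of Pdk1, at a level of 3.07, had the opposite sign. Where a chromosome holds members on both strands, sets for the plus strand are numbered first. The Car9 set used is numbered above that of Slc2a1, though Car9 starts before it on the plus strand of chr4. That set may read the opposite strand, as may the second sets of Hif1a and Slc2a1, which was not tested.

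The end of the pathway makes and exports lactate. Ldha, the dehydrogenase subunit that favours lactate, had 9.16, 8.85 and 8.90 in the arrays labelled IL-33, against 9.21, 9.23 and 9.20 in those labelled PBS. The PBS values were tight, and IL-33 replicate 1 lay near them while the other two lay clearly lower. The difference was -0.24 ± 0.08 (log2, SE) with an adjusted p of 0.298 (limma).

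The lactate transporters, too, stood on opposite sides. Slc16a3, the exporter MCT4, which hypoxia induces, had 10.58, 10.53 and 10.61 with IL-33, against 10.68, 10.73 and 10.71 with PBS. Slc16a1, the bidirectional carrier MCT1, had 11.28, 11.29 and 11.36 with IL-33, against 11.16, 11.20 and 11.22 with PBS. Neither overlapped, the first at -0.13 ± 0.05 and the second at 0.12 ± 0.05 (log2, SE), with adjusted p of 0.324 and 0.385 (limma). The change of Slc16a1 minus that of Slc16a3 was 0.25 ± 0.02 (log2, SE), with an exact two-sided permutation p of 0.1. In all, 11 pairs of related members were compared in this way, after their values were seen, and the smallest p adjusted over the 11 pairs (Benjamini-Hochberg) was 0.122 (exact permutation test). In 9 of the 11 the groups did not overlap in the difference between the 2 genes, which by itself gives the smallest p. Some pairs share a gene, and the share of such pairs among other genes was not computed, so this count has no background. The test thus cannot decide whether the members of any pair diverged.

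**Figure D3:**
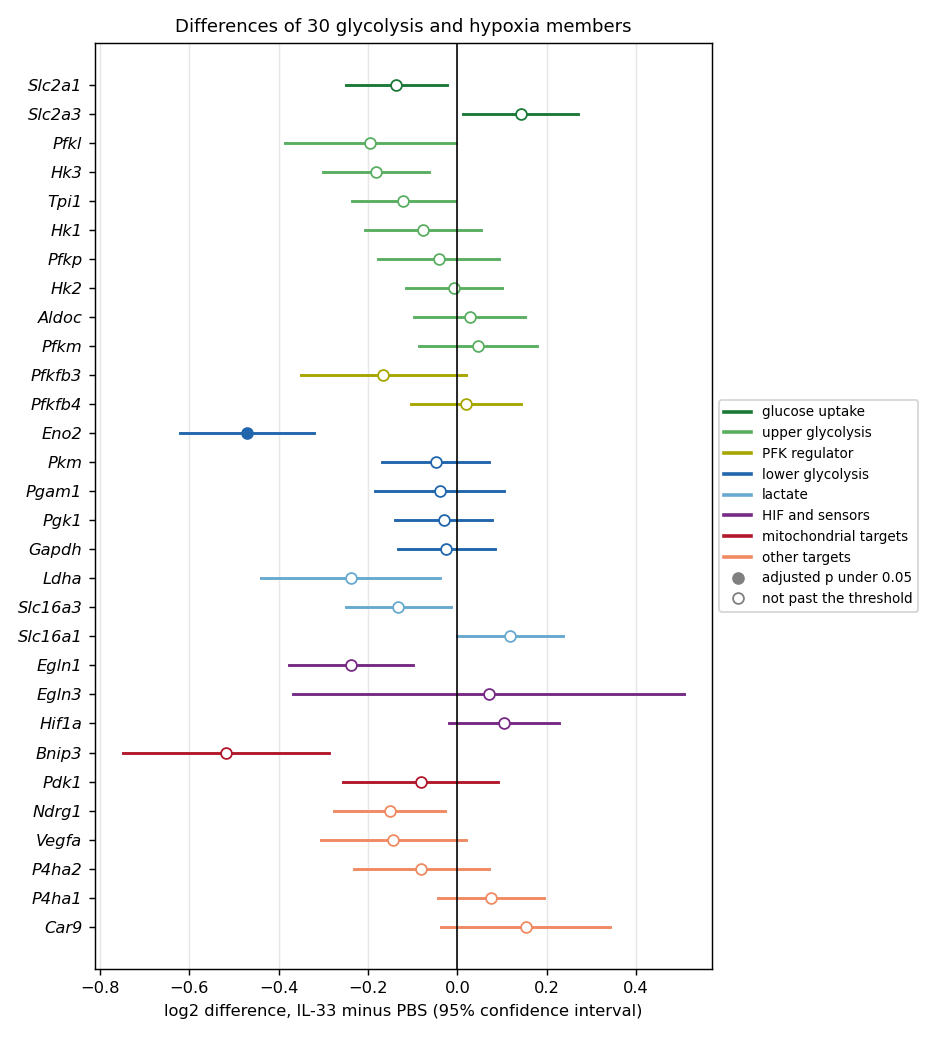
Log2 difference, IL-33 minus PBS, of the 30 measured members with 95% confidence intervals (horizontal axis), coloured by role. The filled point is Eno2, the only member past the threshold, at -0.47, and Bnip3 lies furthest left at -0.52.

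None of the 3 regulators of the hypoxia response passed. Hif1a had 10.70, 10.69 and 10.75 in the arrays labelled IL-33, against 10.59, 10.67 and 10.58 in those labelled PBS. All IL-33 values lay above, at 0.10 ± 0.05 (log2, SE) and an adjusted p of 0.454 (limma). Hif1a RNA does not show the amount of the protein, which is controlled by its degradation. Egln1, the main oxygen-sensing prolyl hydroxylase, had 8.28, 8.18 and 8.30 with IL-33, against 8.52, 8.42 and 8.52 with PBS. The groups were clearly apart, at -0.24 ± 0.06 (log2, SE) and an adjusted p of 0.157 (limma). Egln3, a hydroxylase strongly induced by hypoxia, had 6.47, 5.93 and 6.69 with IL-33, against 6.42, 6.16 and 6.31 with PBS. It was the most variable member, and its 95% interval of -0.37 to 0.51 (log2) allows a change in either direction.

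The hypoxia targets measured that act on mitochondria are Bnip3 and Pdk1, and neither passed. Bnip3, which marks mitochondria for removal, had 8.82, 8.53 and 8.54 in the arrays labelled IL-33, against 9.16, 9.03 and 9.25 in those labelled PBS. Every IL-33 value lay below every PBS value, with IL-33 replicate 1 nearest to them. The means were 8.63 ± 0.17 with IL-33 and 9.15 ± 0.11 with PBS (SD, n = 3 each), a difference of -0.52 ± 0.10 (log2, SE) with an adjusted p of 0.0866 (limma). Pdk1, the kinase that keeps pyruvate out of the citric acid cycle, overlapped at -0.08 (log2), and this was -0.14 without IL-33 replicate 1 and -0.04 without PBS replicate 3.

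The remaining hypoxia members have varied roles. Ndrg1, a stress-responsive protein induced by hypoxia, had 11.88, 11.85 and 11.80 with IL-33, against 12.03, 11.94 and 12.02 with PBS, and did not overlap, at -0.15 ± 0.05 (log2, SE) and an adjusted p of 0.287 (limma). Vegfa, the angiogenic growth factor, had 9.73, 9.62 and 9.63 with IL-33, against 9.84, 9.69 and 9.88 with PBS. These overlapped, at -0.14 ± 0.07 (log2, SE). Of the subunits of the collagen prolyl hydroxylase, P4ha1 had 10.99, 11.03 and 11.04 with IL-33, against 10.98, 10.96 and 10.89 with PBS. Its IL-33 values lay just above, at 0.08 ± 0.05 (log2, SE), and P4ha2 overlapped at -0.08, with -0.13 without IL-33 replicate 1 and -0.03 without IL-33 replicate 2. Car9, a carbonic anhydrase and one of the most hypoxia-specific genes known in tumours, had 7.62, 7.63 and 7.55 with IL-33, against 7.60, 7.31 and 7.43 with PBS. These values come from the probe set that may read the opposite strand. PBS replicate 1 reached the IL-33 values. The difference was 0.15 ± 0.08 (log2, SE), and it was 0.23 without that array and 0.09 without PBS replicate 2.

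The classes are set side by side here. Of 20 glycolytic members 15 differed by less than 0, the median being -0.05 (log2), and 7 were lower and 1 higher at an unadjusted p under 0.05. Of 10 hypoxia members 6 differed by less than 0, the median being -0.08, and 3 were lower at that threshold while none passed the adjusted one (limma). Over all genes the median was -0.01 and 52.1% had a difference below 0. Among genes at or above the median level these were 0.01 and 47.8%. At that unadjusted threshold 6.74% of all genes were lower and 6.42% higher, and the 11 members of both classes numbered 5 to 8 when 1 array was left out. In those fits 9.96% to 13.3% of all genes passed it in either direction. The glycolytic median was -0.07 without IL-33 replicate 3, and the hypoxia median was -0.14 without IL-33 replicate 1 and -0.04 without IL-33 replicate 2. The difference between the classes was not tested.

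**Figure D4:**
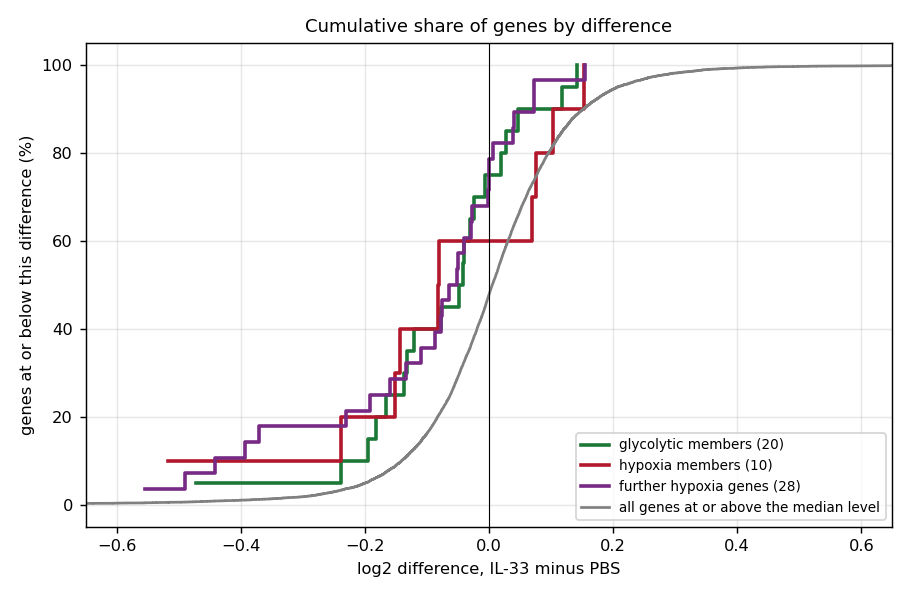
Cumulative share of genes (vertical axis, percent) by log2 difference, IL-33 minus PBS (horizontal axis, from -0.65 to 0.65). The medians were -0.05 for 20 glycolytic members, -0.08 for 10 hypoxia members, -0.06 for 28 further hypoxia genes and 0.01 for all genes at or above the median level.

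The number of members called differed between settings. With a robust prior variance that follows a trend over intensity, 7 of 30 members passed, all of them lower, where 4.51% of all genes passed. They were Eno2, Bnip3, Slc2a1, Hk3, Ndrg1, Tpi1 and Egln1, and the 6 besides Eno2 had adjusted p from 0.00285 to 0.0309 (limma). With only genes at or above the median level tested, 4 of 29 passed, namely Eno2, Bnip3, Egln1 and Hk3, where 6.85% of genes did. That setting changes both the variance prior and the number of tests. Other settings lowered the count. With the replicate number added to the fit as a block 0 members passed, where 0.0947% of all genes did. Without 1 array 0 to 1 members passed, where 0.0676% to 0.374% of all genes did.

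Genes near these in function were measured as 3 further lists. Of 28 further genes of the HIF pathway and the hypoxia response 27 did not pass, 1 fell and none rose. Their median difference was -0.06 (log2), and 21 lay below 0. The gene that fell was Gbe1, the glycogen branching enzyme, which hypoxia induces. It had 9.45, 9.25 and 9.29 in the arrays labelled IL-33, against 9.85, 9.79 and 9.83 in those labelled PBS. The groups were far apart, at a level 1.40-fold lower and a difference of -0.49 ± 0.07 (log2, SE) with an adjusted p of 0.0354 (limma). Gbe1 passed without IL-33 replicate 1 but not without any other single array, with adjusted p from 0.0309 to 0.181 (limma).

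With Gbe1, 6 of the 28 had groups that did not overlap, all with IL-33 below, a share of 21.4%. That held for 20.3% of all genes, 10.1% below. Among genes at or above the median level, where most of the 28 lie, it held for 29.9%, 13.2% below. The 5 besides Gbe1 are named after their values were seen, and none of them passed. Hilpda, a lipid droplet protein induced by hypoxia, had 8.62, 8.20 and 8.35 with IL-33, against 9.08, 8.80 and 8.96 with PBS, a difference of -0.55 ± 0.12 (log2, SE). The transcriptional repressor Bhlhe40 was at -0.44, the collagen cross-linking oxidase Lox at -0.39, the nuclear receptor Rora at -0.37 and the mitochondrial adenylate kinase Ak4 at -0.23 (log2). Adjusted p for these 5 lay between 0.0593 and 0.170 (limma).

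**Figure D5:**
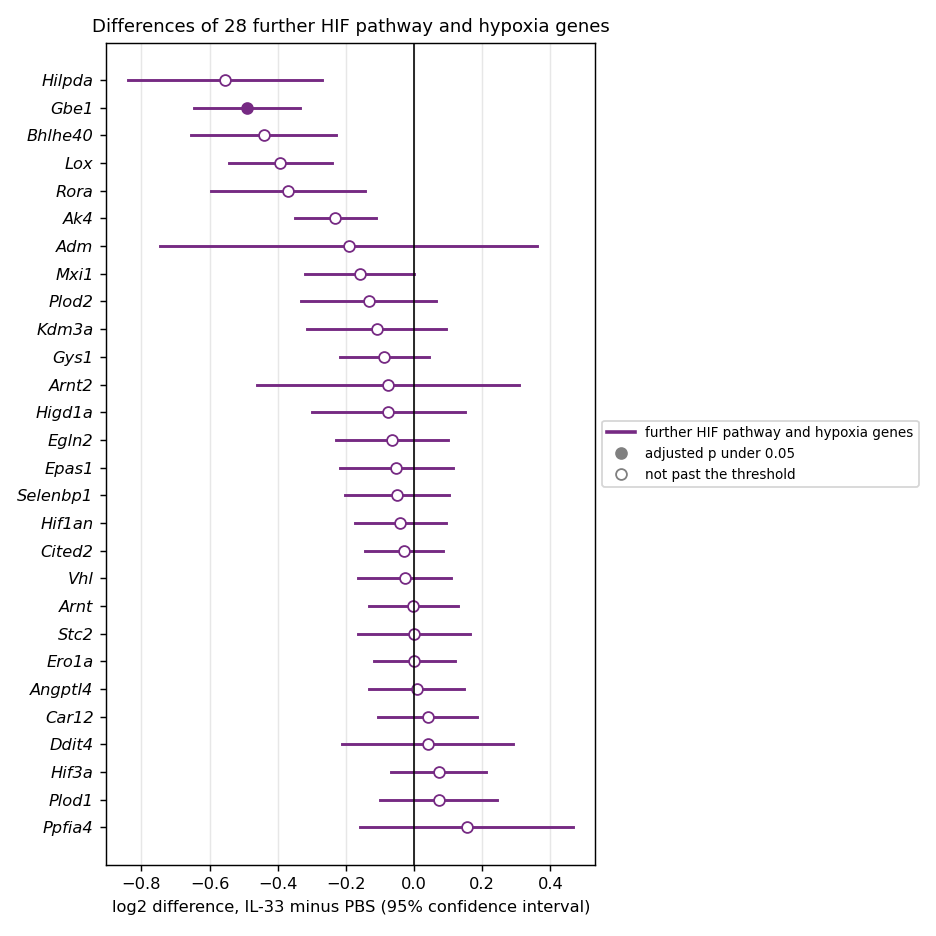
Log2 difference, IL-33 minus PBS, of 28 further HIF pathway and hypoxia genes with 95% confidence intervals (horizontal axis). Gbe1 at -0.49 is the filled point, past the threshold, and the intervals of 6 genes from Hilpda to Ak4 lie wholly below 0.

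None of 26 further glycolysis and pyruvate genes passed, and their median difference was 0.05 (log2) with 15 above 0. At an unadjusted p under 0.05 (limma) 5 were higher and none lower, beside 6.42% and 6.74% of all genes. Without overlap, 6 lay above and 2 below, beside 10.3% and 10.1% of all genes. Most of the 26 lie at or above the median level. Of genes there, 16.7% lay above and 13.2% below without overlap, and 17.8% had an unadjusted p under 0.05 in either direction (limma). Slc16a7, the carrier MCT2, was at 0.23 ± 0.06 and Pdk3, a kinase related to that of Pdk1, at 0.16 ± 0.05 (log2, SE), with adjusted p of 0.155 and 0.256 (limma). Of 6 pentose phosphate genes none passed and 1 had an unadjusted p under 0.05 (limma). The epimerase Rpe was at 0.18 ± 0.06 and the isomerase Rpia at 0.13 ± 0.06 (log2, SE), and the median was 0.01.

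Promoter sequence was read for the members from RefSeq (GRCm38.p6), as 250 bases before and 50 after an annotated start, and 32 of 35 members matched. The hypoxia-inducible factor binds DNA at a short core, and the letters ACGTG and GCGTG were searched on both strands. A CACGTG counts at 2 positions because both of its strands hold ACGTG. Of 46 windows of members 37 held a match, which is 80.4%, beside 43.8% of all 32851 windows. The members' windows had a median of 20 CG pairs and all windows a median of 7, and of 8701 windows with at least 20 such pairs 73.6% held a match, as did 23 of the 25 member windows of that kind. Counted by gene, 29 of 32 members with a window held a match in at least 1 window (90.6%), beside 46.7% of all genes with a window. Of members whose groups did not overlap, 9 of 11 that lay lower held a match, and 3 of 3 that lay higher.

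The windows of 5 members are shown to set the 3 lowest adjusted p-values beside the lactate gene with the most matches and a member that lay higher. They are chr6:124769624-124769923 (minus strand) for Eno2, chr7:138909457-138909756 (minus) for Bnip3, chr8:124949205-124949504 (minus) for Egln1, chr7:46845554-46845853 (plus), the first of 2 windows, for Ldha, and chr3:104638414-104638713 (plus) for Slc16a1. Each is written 5′ to 3′ on the strand of the gene, and capitals mark the matches.
Eno2: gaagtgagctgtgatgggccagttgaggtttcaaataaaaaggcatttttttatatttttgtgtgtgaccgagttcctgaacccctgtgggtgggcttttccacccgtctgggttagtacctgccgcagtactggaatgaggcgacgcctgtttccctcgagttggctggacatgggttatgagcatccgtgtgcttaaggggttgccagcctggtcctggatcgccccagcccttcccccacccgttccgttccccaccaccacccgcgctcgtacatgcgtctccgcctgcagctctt
Bnip3: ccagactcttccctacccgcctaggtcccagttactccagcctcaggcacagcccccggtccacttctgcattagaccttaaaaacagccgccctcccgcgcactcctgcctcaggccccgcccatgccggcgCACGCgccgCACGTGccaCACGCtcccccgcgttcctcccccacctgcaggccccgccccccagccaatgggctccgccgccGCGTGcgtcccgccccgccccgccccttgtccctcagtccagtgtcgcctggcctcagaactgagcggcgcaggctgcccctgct
Egln1: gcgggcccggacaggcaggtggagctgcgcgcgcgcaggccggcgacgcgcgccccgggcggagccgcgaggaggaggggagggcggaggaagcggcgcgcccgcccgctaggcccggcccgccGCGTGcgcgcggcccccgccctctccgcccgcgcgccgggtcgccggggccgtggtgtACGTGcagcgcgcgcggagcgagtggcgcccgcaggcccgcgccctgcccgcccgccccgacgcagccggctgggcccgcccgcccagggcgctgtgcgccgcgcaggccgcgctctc
Ldha: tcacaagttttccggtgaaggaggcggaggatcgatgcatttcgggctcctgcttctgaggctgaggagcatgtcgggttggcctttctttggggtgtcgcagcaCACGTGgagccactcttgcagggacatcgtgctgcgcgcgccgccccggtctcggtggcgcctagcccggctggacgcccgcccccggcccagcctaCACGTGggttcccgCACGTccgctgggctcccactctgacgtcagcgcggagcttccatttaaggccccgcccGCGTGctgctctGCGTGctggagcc
Slc16a1: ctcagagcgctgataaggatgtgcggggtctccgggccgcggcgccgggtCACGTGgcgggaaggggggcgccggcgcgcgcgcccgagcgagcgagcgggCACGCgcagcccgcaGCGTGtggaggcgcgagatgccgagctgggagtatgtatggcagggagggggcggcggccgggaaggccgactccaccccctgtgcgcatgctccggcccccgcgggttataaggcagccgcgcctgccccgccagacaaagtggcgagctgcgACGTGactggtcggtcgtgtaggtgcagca
Eno2, the member that passed, had no match in its window, Egln1 had 2, Bnip3 and Slc16a1 had 5 each and Ldha had 7. Bnip3, which was lower, and Slc16a1, which was higher, thus had the same number. A match is a run of letters and not a site, and its absence says only that these letters are not in this window.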

How the data were processed

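Total RNA was labelled with biotin and hybridised to 1 array per sample, per the labels' protocols. The authors deposited log2 values per probe set and array, made with RMA, per the submitters' processing notes, which name no version or setting. The table of 41345 probe sets has no detection calls, so absence could not be called. The arrays all differed from each other. Probe sets with exactly 1 gene symbol (23521) gave 22180 genes, each represented by its probe set with the highest mean. Groups came from the sample titles.

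The log2 values were fitted as deposited with limma 3.58.1 under R 4.3.3, using lmFit and eBayes without covariate or filter, over all genes, with Benjamini-Hochberg adjustment at 0.05. The fit was tested on simulated data with 200 changed genes. Differences are IL-33 minus PBS. Precision is limited by having 3 arrays a group (median SE 0.07, log2). All members could be named, as could list genes that passed or otherwise the 2 with the smallest p, and a few others are marked as named after their values were seen. The members and lists were chosen with earlier results of these data known. The groups share replicate numbers (1 to 3), but no label ties a number to a culture. Deviations of samples with the same number correlated at r = 0.02 to 0.06, so the numbers were not taken as pairs. Alternatives were a filter on dim genes, 2 normalizations, other probe set choices, a replicate block, another prior variance and leaving out each array. Plots used Python 3.11.15 and matplotlib 3.10.9.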

Additional observations from a re-analysis of the deposited data

How the results depend on the processing

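In place of 131 genes called, 760 were called among genes at or above the median level, 1000 with the trended and robust prior variance, 17 over all probe sets with control probe sets not left out, and 21 with the replicate block. In these settings other than the probe sets, members called numbered 4, 7 and 0 in place of 1, and further pathway genes called 5, 7 and 0 in place of 1. With the replicate block Eno2 had an adjusted p of 0.140 and Gbe1 of 0.114 (limma), at the same differences of -0.47 and -0.49 (log2). The cause was not tested. Leaving out 1 array gave 15 to 83 genes, 0 to 1 members and 0 to 1 pathway genes called, and 5 to 8 members in place of 11 at an unadjusted p under 0.05. The share of all genes at that unadjusted threshold was 9.96% to 13.3% in these fits, in place of 13.2%. Fewer arrays leave less precision.

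The median difference of glycolytic members was -0.068 when a gene's probe sets were averaged, in place of -0.045, and -0.068 to -0.034 without 1 array. That of hypoxia members was -0.136 to -0.039 without 1 array. A second quantile normalization and centring on the 75th percentile kept 1 member and 1 pathway gene called. Of 478 values of 40 named genes, 3 changed sign, and the cause was not tested: Pgam1 lay between -0.070 and 0.0086 without 1 array, Egln3 between -0.095 and 0.285, and Pfkfb4 between -0.0017 and 0.049. Another 12 lost a call, 19 gained one and 444 did neither.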
